A study of Rattus norvegicus with 28 samples.

Results

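The medial prefrontal cortex (mPFC) and the nucleus accumbens (NAc) of rats that received H3.3Q5A were compared, with 7 libraries from each region. These 14 of the 28 libraries of the study were chosen from their titles, by region and virus, and no measured value entered the choice. All rats were male, young adult Sprague-Dawley animals of 200 to 250 g. Extended-access cocaine self-administration for 10 days was followed by injection of lenti-pCDH-H3.3Q5A into both sides of one region, then by 30 days of abstinence while the virus was expressed, and last by a test of cue-induced cocaine seeking. The other 14 libraries came from rats treated alike that received lenti-pCDH-H3.3WT. Every group thus shared the cocaine history, the abstinence, the cue test and a lentivirus, so the region difference given here is that of cocaine-experienced and virus-injected tissue. The promoter of the vector and the share of cells it reached are not given in the sources used here.

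H3.3 is a histone H3 variant that is placed into chromatin outside DNA replication and is the main H3 form of mature neurons. Transglutaminase 2 can attach dopamine to a glutamine near the start of the H3 tail, a mark called dopaminylation. In H3.3Q5A that glutamine is an alanine, which cannot take up dopamine. The NAc is a part of the ventral striatum made up mostly of inhibitory projection neurons that receive dense dopamine input. The mPFC is a layered cortex whose projection neurons are mostly excitatory and send axons to the NAc.

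The genes carry Ensembl identifiers only, and 0 of the 15635 identifiers matched a symbol in the reference gene table. Gene functions, marker genes of the labelled regions and of other cell types, and promoter sequences are therefore not analysed here, and the region labels could not be checked against defining markers. Groups of genes are described by their behaviour in the H3.3WT libraries, which the comparison with H3.3Q5A did not use. Total counts ran from 17.1 to 51.7 M (megacounts) in NAc and from 29.7 to 47.0 M in mPFC with H3.3Q5A, a difference in means of −9.99 M (two-sided exact permutation test over 3432 divisions of the 14 libraries, p = 0.0723). Expression levels are counts scaled to library size (CPM) with the trimmed mean (TMM) factors of edgeR.

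Of the H3.3Q5A libraries, 3 stood apart from their groups. These were mPFC replicate 34, with higher levels of genes typical of NAc, NAc replicate 19, with higher levels of genes typical of mPFC, and NAc replicate 3. The counts of called genes are given with and without them. NAc replicate 3 had 256 genes at least 2-fold above each of the other 6 NAc libraries and 133 at least 2-fold below each of them. The other NAc libraries had 0 to 78 such genes above and 11 to 26 below. The highest of these counts, 78, was that of NAc replicate 19, and 47 of its genes were at least 2-fold higher in mPFC with H3.3WT. Of the 256 genes of replicate 3, 104 were at least 2-fold higher in NAc than in mPFC with H3.3WT, and 9 were at least 2-fold higher in mPFC. These H3.3WT folds had no limit on the adjusted p, and the share of all genes past the fold alone is not given here. With an adjusted p under 0.05 as well, 5.52% of all genes tested with H3.3WT were at least 2-fold higher in NAc and 6.23% in mPFC.

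Of the 15575 genes tested with H3.3Q5A, 906 had a higher level in NAc and 1190 a higher level in mPFC. A gene was called at a log2 fold change of 1 or more either way and an adjusted p under 0.05 (quasi-likelihood test of edgeR, with the P1 or P2 mark of the title as an additive term). These were 5.82% and 7.64% of the genes tested, and 13.5% together. At any fold, 8715 genes (56% of those tested) passed the adjusted p, 4367 (28%) in the direction of NAc and 4348 (27.9%) in that of mPFC. The median log2 fold change over all genes was 0.01. Regardless of the test, all 7 NAc libraries lay above all 7 mPFC libraries for 2205 genes (14.2%) and below them for 2269 genes (14.6%), together 28.7% of the genes. In bulk tissue, fewer cells of a type and less RNA per cell cannot be told apart, and this holds for each region difference below.

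Most called differences were moderate in size. The log2 fold change was between 1 and 2 for 640 of the NAc genes and 870 of the mPFC genes, and between 2 and 3 for 161 and 222. It was between 3 and 4 for 56 NAc genes and 71 mPFC genes. At 4 or more, a 16-fold difference, the order was the other way round, with 49 genes higher in NAc and 27 higher in mPFC. Moderate differences favoured mPFC in number and the largest ones favoured NAc, although this contrast was not tested. The NAc genes with a log2 fold change of 1 to 2 had a median of 18.2 CPM in NAc, whereas the mPFC genes in that range had a median of 8.70 CPM in mPFC. All 49 of the largest NAc differences and 26 of the 27 largest mPFC differences had no overlap between the 7 libraries of each region.

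**Figure D1:**
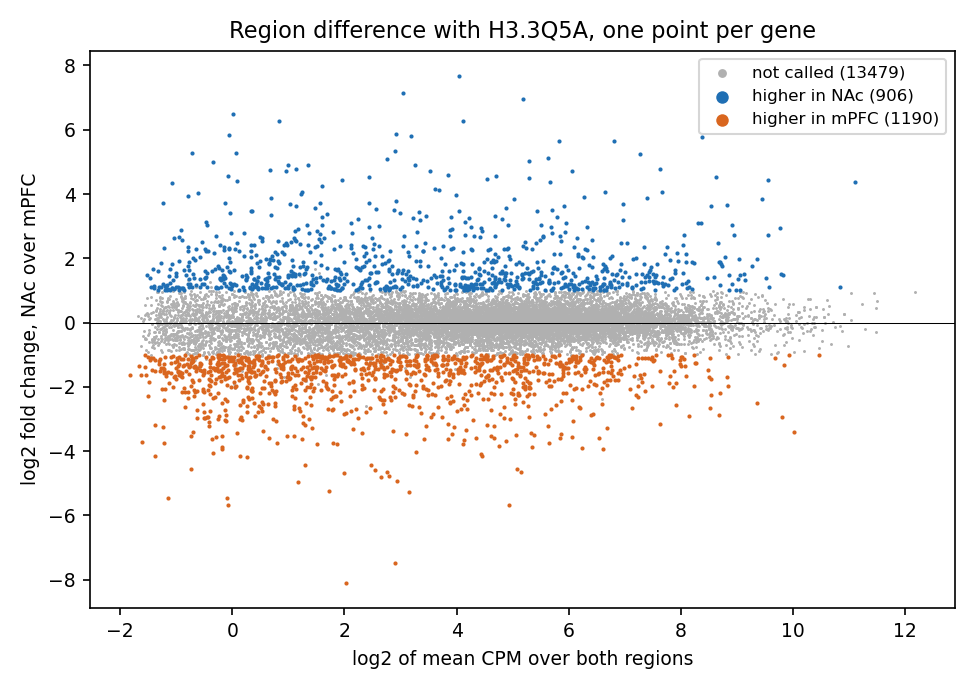
Each point is 1 of 15575 genes, with log2 of its mean CPM over both regions on the x axis and its log2 fold change of NAc over mPFC with H3.3Q5A on the y axis. The 906 genes called higher in NAc and the 1190 called higher in mPFC are spread over the whole range of levels, and 13479 genes were not called.

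Among genes at 10 CPM or more in the higher region, those with the largest fold changes were nearly absent from the other region. ENSRNOG00000010053 ranged from 2.51 to 48.9 CPM in NAc (median 33.6) and from 0.0203 to 0.285 CPM in mPFC (median 0.159). Its NAc libraries lay close together except for replicate 3, at 2.51 CPM where the next lowest was at 32.2 CPM. The log2 fold change was 7.67 (SE 0.60, edgeR adjusted p = 1.19e-07). ENSRNOG00000028348 ranged from 13.1 to 22.3 CPM in NAc (median 14.8) and from 0 to 0.565 CPM in mPFC (median 0.0255), with a log2 fold change of 7.14 (SE 0.54, edgeR adjusted p = 9.49e-08). The highest mPFC value was that of replicate 34, with 26 reads where the other 6 mPFC libraries had 0 to 2. No NAc library overlapped with an mPFC library in either gene.

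In the opposite direction, ENSRNOG00000010983 ranged from 7.98 to 28.1 CPM in mPFC (median 10.1) and from 0 to 0.196 CPM in NAc (median 0.0585). Its log2 fold change was −7.48 (SE 0.48, edgeR adjusted p = 2.1e-08). The mPFC libraries differed among themselves by more than 3-fold in this gene, yet the lowest was still far above the highest NAc library. ENSRNOG00000016999 ranged from 39.0 to 85.5 CPM in mPFC (median 62.5) and from 0.473 to 2.39 CPM in NAc (median 1.24), a log2 fold change of −5.69 (SE 0.29, edgeR adjusted p = 4.7e-09). The lowest mPFC value was that of replicate 34 and the highest NAc value was that of replicate 19, again without overlap.

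The region difference with H3.3Q5A was set beside that with H3.3WT, which came from other libraries. By the same rule, 856 of 15507 genes (5.52%) had a higher NAc level with H3.3WT and 966 (6.23%) a higher mPFC level. The viruses shared 676 NAc genes, 74.6% of those called with H3.3Q5A and 79% of those called with H3.3WT. They shared 862 mPFC genes, 72.4% and 89.2% of the same lists. No gene was called in opposite directions. Of the 230 NAc genes called with H3.3Q5A alone, 212 had the same sign with H3.3WT, and 171 had the same sign and an adjusted p under 0.05 there but a fold below the limit. For the 328 mPFC genes called with H3.3Q5A alone, these numbers were 310 and 235. The share of all genes that passed the adjusted p at any fold with H3.3WT is not given here. With H3.3Q5A it was 28% towards NAc and 27.9% towards mPFC. The log2 fold changes with the 2 viruses had a Pearson correlation of 0.946 and a Spearman correlation of 0.912 across 15471 genes, which share their libraries and are no replicates.

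Lists of genes typical of each region were made from the H3.3WT libraries alone, at a log2 fold change of 2 or more with an adjusted p under 0.05. They hold 245 NAc-high genes and 224 mPFC-high genes. With H3.3Q5A, all 245 NAc-high genes were tested and kept their direction, 244 were called (background 5.82%) and 222 had no overlap between the regions (background 14.2%). Of the mPFC-high genes 219 were tested, 219 kept their direction, 213 were called (background 7.64%) and 203 had no overlap (background 14.6%). The 5 mPFC-high genes that were not tested fell under edgeR's filter on low counts. The median log2 fold change of the NAc-high genes was 2.78 with H3.3Q5A and 2.73 with H3.3WT. For the mPFC-high genes it was −2.88 with H3.3Q5A and −2.38 with H3.3WT. Since the H3.3WT values chose the lists, those values are a description only.

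Whether the region difference itself changed with the virus was tested as an interaction on all 28 libraries. No gene passed: 0 of 15635 had an adjusted p under 0.05 (edgeR quasi-likelihood test), DESeq2 also called 0, and 9 passed with limma voom and sample quality weights. At an unadjusted p under 0.05 there were 822 genes (5.26% of those tested) with edgeR, 403 (2.58%) with a larger value of NAc over mPFC with H3.3Q5A and 419 (2.68%) with a smaller one. The number at this unadjusted limit depended on the method: it was 907 with DESeq2 and 1907 with limma voom and sample quality weights. The median interaction was −0.40 on the log2 scale over the mPFC-high genes, 0.01 over the NAc-high genes and −0.000925 over all genes. Towards a wider gap between the regions with H3.3Q5A lay 167 of the 224 mPFC-high genes and 127 of the 245 NAc-high genes. The lists were chosen on the H3.3WT fold, which the interaction subtracts. The list medians and counts therefore depend in part on that choice and are a description only. The share of all genes with a wider gap is not given here. The mPFC-high genes had a mean level of 3.17 log2 CPM (SD 0.19, n = 7) in mPFC with H3.3WT and 3.15 (SD 0.19) with H3.3Q5A. In NAc it was 0.58 (SD 0.50) with H3.3WT and 0.26 (SD 0.34) with H3.3Q5A. The highest NAc libraries with H3.3WT were replicates 12, 8 and 23, at 1.345, 0.90 and 0.85. Their part in the median interaction was not tested.

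The genes with the smallest interaction p-values had modest interactions, from −0.41 to 0.61 on the log2 scale. ENSRNOG00000004730 ranged from 391 to 554 CPM in NAc (median 467) and from 104 to 138 CPM in mPFC (median 129) with H3.3Q5A, where its log2 fold change was 1.89 (SE 0.08). With H3.3WT the log2 fold change was 1.48 (SE 0.07), an interaction of 0.40 (SE 0.11). ENSRNOG00000018755 ranged from 41.3 to 49.5 CPM in NAc (median 45.4) and from 75.8 to 97.2 CPM in mPFC (median 84.4), a log2 fold change of −0.91 (SE 0.06) against −0.54 (SE 0.06) with H3.3WT. Both genes separated the regions without overlap under H3.3Q5A. ENSRNOG00000021410 had a log2 fold change of 0.41 (SE 0.06) with H3.3Q5A and −0.21 (SE 0.13) with H3.3WT, and ENSRNOG00000006789 of −0.33 (SE 0.07) and 0.08 (SE 0.08). The edgeR adjusted p of the interaction was 0.904 for each of the 4 genes.

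By library, the NAc-high genes had a mean of 3.70 to 4.43 log2 CPM in NAc (median 3.87) and 0.63 to 1.84 in mPFC (median 0.71) with H3.3Q5A. The upper end in mPFC was replicate 34 at 1.84, and the other 6 libraries lay between 0.63 and 0.88. The mPFC-high genes had a mean of 3.08 to 3.31 log2 CPM in those 6 libraries and of 2.76 in replicate 34. In NAc they had a mean of 0.03 to 0.96, with replicate 19 at the top and the next library at 0.42. The regions were thus far apart in every library, and replicate 34 lay nearer to NAc than any other mPFC library on both lists. Among the mPFC libraries with H3.3WT, the highest level of NAc-high genes was 1.19 log2 CPM, in replicate 11. The H3.3WT libraries served to choose the lists, so their levels are not a like comparison for replicate 34.

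**Figure D2:**
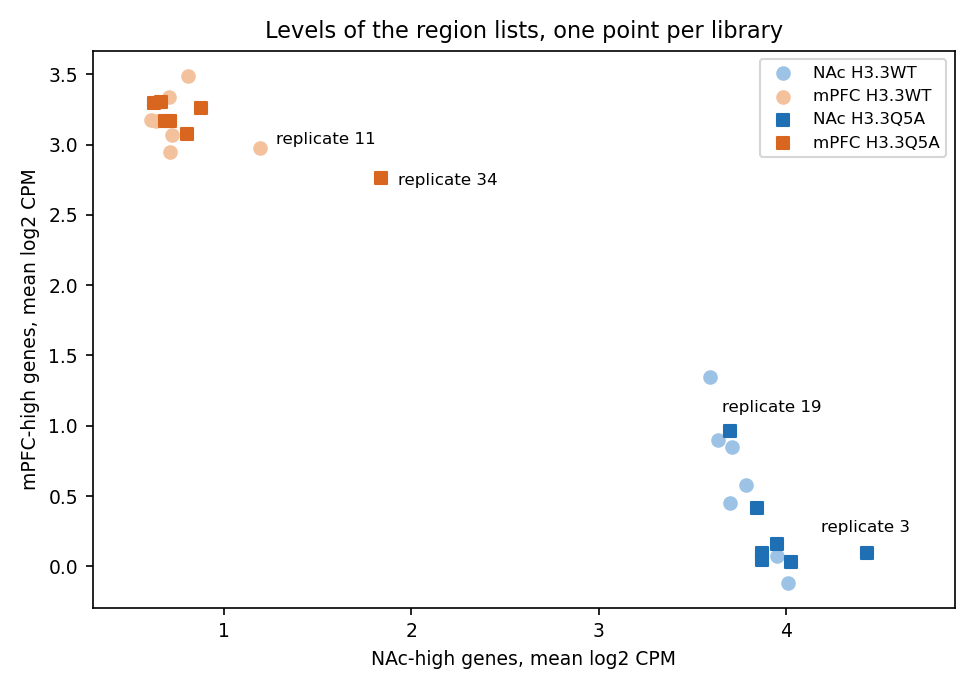
Each point is 1 of 28 libraries, with the mean log2 CPM of the 245 NAc-high genes on the x axis and of the 224 mPFC-high genes on the y axis. Replicate 34 of mPFC with H3.3Q5A, at 1.84 and 2.76, lies between the mPFC cluster and the NAc libraries but closer to mPFC, and replicate 3 of NAc is the farthest to the right at 4.43.

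As a share of all counts, the NAc-high genes took 0.533% in replicate 34 and 0.252% to 0.275% in the other 6 mPFC libraries. In NAc they took 1.94% to 4.55%, the top value being that of replicate 3. The mPFC-high genes took 0.998% in replicate 34 and 1.24% to 1.37% in the other 6. Replicate 34 was outside the range of its group on both shares. Its total count of 42.9 M was within the range of its group. The median correlation of its log2 CPM with the other mPFC libraries was 0.975, close to the next lowest value of 0.977 in replicate 2.

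The shift of replicate 34 covered most of the NAc-high genes. It had the highest value of the 7 mPFC libraries for 180 of the 245 NAc-high genes, whereas each other library was highest for 2 to 17. A gene in which replicate 34 was highest cannot count for another library, which lowers the numbers of the others. Among the mPFC libraries with H3.3WT, replicate 11 was highest for 99 of the 245 and each other library for 16 to 34. Those libraries served to choose the list, so their counts are not a like comparison. In 166 of the 245, replicate 34 lay above all other mPFC libraries and below all 7 NAc libraries. Of the 224 mPFC-high genes it had the lowest value of the group for 110, and each other mPFC library was lowest for 10 to 27, with the same limit. Beyond the lists, 165 of all genes tested were at least 2-fold higher in replicate 34 than in each of the other 6 mPFC libraries. Of these, 126 were at least 2-fold higher in NAc with H3.3WT. The same count was 2 to 70 in the other mPFC libraries, of which 0 to 3 were higher in NAc. Each of those libraries was compared with replicate 34 as well, so the high values of replicate 34 can lower these counts. The H3.3WT fold had no limit on the adjusted p here. With an adjusted p under 0.05 as well, 5.52% of all genes tested with H3.3WT were at least 2-fold higher in NAc. In the downward direction, 12 genes were at least 2-fold lower in replicate 34 than in all 6 others, within the 6 to 24 of the other mPFC libraries.

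The place of replicate 34 between the regions was then expressed per gene, as the percentage of the way from the mean CPM of the other 6 mPFC libraries to the mean CPM of NAc. The median was 10.3% over the NAc-high genes, with quartiles of 4.88% and 19.6%. The other 6 mPFC libraries, whose own reference includes replicate 34, had medians of −2.66% to −1.43%, and replicate 11 of mPFC with H3.3WT had 3.63%. Over the mPFC-high genes the median for replicate 34 was 33% (quartiles 14.9% and 46.5%), and the other 6 libraries had medians of −16% to 8.66%. The mPFC libraries with H3.3WT reached 21.2% in replicate 11, 19.6% in replicate 3 and 13.8% in replicate 6 on this list. Both lists were chosen in the H3.3WT libraries, so the places of these libraries are not a like comparison. On the log2 scale the order of the lists was reversed, with 33.2% for the NAc-high genes and 14.4% for the mPFC-high genes, so no order between the lists is read from these values. The genes were not shifted evenly: 22 of the 245 NAc-high genes were not shifted towards NAc at all, and 13 were shifted by more than 50%.

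**Figure D3:**
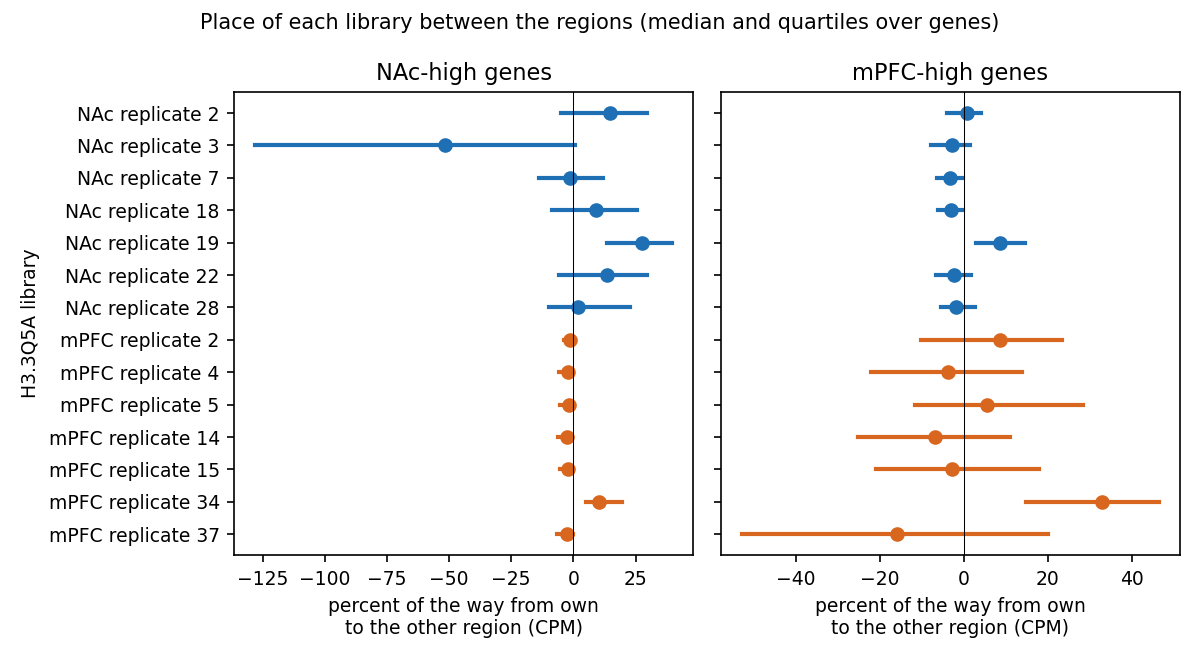
For each of the 14 libraries with H3.3Q5A the x axis gives the percentage of the way from its own region to the other in CPM, as the median (point) and quartiles (line) over the 245 NAc-high genes on the left and the 224 mPFC-high genes on the right. Replicate 34 of mPFC is at 10.3% and 33%, and replicate 3 of NAc is at −51.7% on the left, away from mPFC.

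The size of the shift in log2 units went with the size of the region difference. NAc-high genes with an H3.3WT log2 fold change of 2 to 3 were higher in replicate 34 by a median of 0.71 log2 CPM relative to the other 6 mPFC libraries. The median was 1.27 for those at 3 to 4 and 1.99 for those at 4 or more. In CPM terms the 3 classes were at 12.2%, 12% and 8.07% of the way to NAc. For the mPFC-high genes the same classes had median distances of −0.404, −0.538 and −0.692 log2 CPM (n = 180, 32 and 12). Their places rose in CPM terms, from 31.2% to 37.9% and 42.5%. The Spearman correlation of the distance with the H3.3WT region fold was 0.498 within the NAc-high list and 0.21 within the mPFC-high list. Over 15471 genes the distance of replicate 34 from the other 6 had a Spearman correlation of 0.367 with the H3.3WT region fold. The other 6 libraries, whose own reference includes replicate 34, had values of −0.204 to 0.0167. These correlations are across genes of single libraries and describe those libraries.

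A pair of NAc-high genes had the largest log2 distance of replicate 34 from the other mPFC libraries. ENSRNOG00000017712 was at 19.2 CPM in replicate 34 and at 0.189 to 0.609 CPM in the other 6, while NAc ranged from 29.8 to 167 CPM (median 99.3). ENSRNOG00000057031 was at 2.41 CPM in replicate 34, from 111 reads, and at 0 to 0.264 CPM in the other 6, of which 4 had no read. NAc ranged from 25.2 to 58.2 CPM in this gene (median 29.9). In both genes replicate 34 lay between the regions, at 19.7% and 6.9% of the way to NAc. The second of these is below the list median of 10.3%, so a large distance in log2 units was not a large share of the way in CPM. They were chosen for this distance, so it is given as a description.

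Both mPFC-high genes chosen in the same way varied widely among the mPFC libraries. ENSRNOG00000011648 was at 4.58 CPM in replicate 34 and at 6.85 to 46.0 CPM in the other 6, and NAc ranged from 0.483 to 1.87 CPM (median 1.23). ENSRNOG00000024899 was at 0.521 CPM in replicate 34 and at 0.917 to 41.9 CPM in the other 6. In NAc the latter gene ranged from 0.0947 to 8.01 CPM, so the regions overlapped, and its region difference did not pass the test (log2 fold change −2.61, SE 1.32, edgeR adjusted p = 0.106). That p was 0.00409 without NAc replicate 19, the library at 8.01 CPM, where the log2 fold change was −4.80, and it ranged from 0.00409 to 0.371 with each library left out in turn (edgeR adjusted p).

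**Figure D4:**
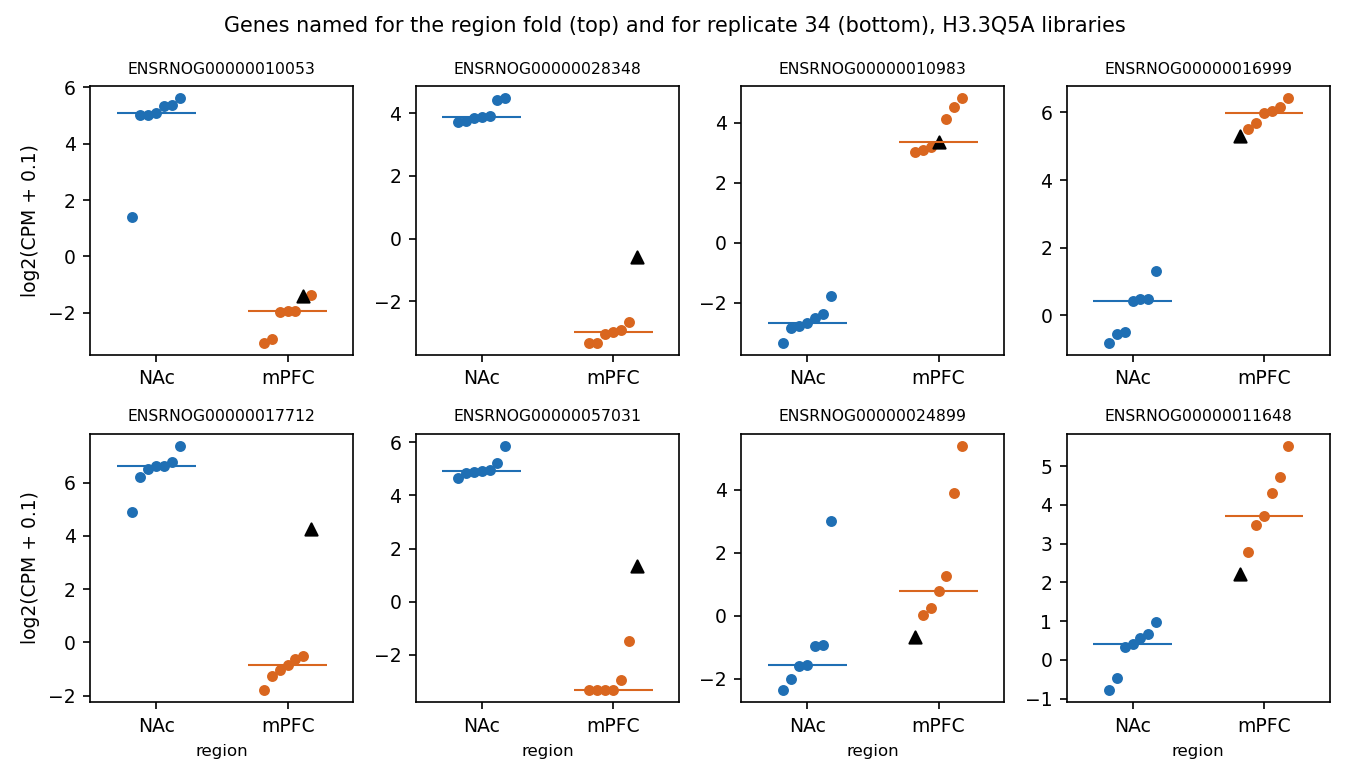
Each panel shows 1 gene in the 14 libraries with H3.3Q5A, as log2(CPM + 0.1) on the y axis by region on the x axis, with a line at each median and mPFC replicate 34 as a black triangle. In ENSRNOG00000028348, ENSRNOG00000017712 and ENSRNOG00000057031 the triangle stands above the other mPFC libraries and below all NAc libraries.

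The region difference in the genes typical of NAc was smaller with replicate 34 than without it. Without it, 987 genes were called towards NAc in place of 906, and 1288 towards mPFC in place of 1190. Of the 906 NAc genes 883 were kept, 23 were lost and 104 were gained. Of the gained genes, 80 had passed the adjusted p with replicate 34 in but not the fold limit, and 73 had a log2 fold change of 1 or more with H3.3WT. Their median log2 fold change was 0.90 with replicate 34 and 1.11 without it. Of all genes tested with H3.3WT, 5.52% had a log2 fold change of 1 or more towards NAc and an adjusted p under 0.05, a limit not set for the 73. Among the mPFC genes 1176 were kept, 14 were lost and 112 were gained. The gain thus came mostly from genes close to the limit.

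The list values moved in the same way. The median log2 fold change of the NAc-high genes was 2.78 with replicate 34 and 2.999 without it, and the fold was larger without it for 230 of 245. Their median SE was 0.306 with it and 0.251 without it. The median of the mPFC-high genes moved less, from −2.88 to −2.95, although their fold was larger without replicate 34 for 195 of 219. Over all 15575 genes tested in both fits, 9713 had a larger fold in absolute size without replicate 34. Without replicate 34, 746 of the 856 NAc genes called with H3.3WT (87.1%) were also called with H3.3Q5A, in place of 676 (79%). With any other single library left out, this number stayed between 649 and 684. For the 966 mPFC genes called with H3.3WT it was 883 without replicate 34 and 844 to 885 without any other library.

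Single fold changes moved by more in 3 of the named genes, in which replicate 34 lay above the other mPFC libraries. ENSRNOG00000017712 and ENSRNOG00000057031 were chosen for that distance. A larger fold without replicate 34 was thus fixed beforehand in both, and their change is a description only. The log2 fold change of ENSRNOG00000057031 was 6.28 (SE 0.77) with replicate 34 and 9.11 (SE 0.42) without it. For ENSRNOG00000017712 it was 5.11 (SE 0.98) and 7.86 (SE 0.36), and for ENSRNOG00000028348 it was 7.14 (SE 0.54) and 9.26 (SE 0.32). For ENSRNOG00000057031 and ENSRNOG00000028348 the values without it rest on few or no reads per remaining mPFC library, so their size depends on how the fit treats zeros. All 3 genes passed the edgeR test either way, with adjusted p-values of 8.86e-06, 0.000474 and 9.49e-08 with the library and of 1.85e-09, 1.59e-09 and 1.61e-10 without it. Over all genes, 20 gained at least 1 log2 unit of NAc over mPFC on leaving out replicate 34, and 18 of them were NAc-high genes. ENSRNOG00000010053, in which replicate 34 lay within the range of the other 6, had a log2 fold change of 7.67 (SE 0.60) with the library and 7.87 (SE 0.67) without it. The fold changes of ENSRNOG00000010983 (−7.48 and −7.60) and ENSRNOG00000016999 (−5.69 and −5.80) hardly depended on it.

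**Figure D5:**
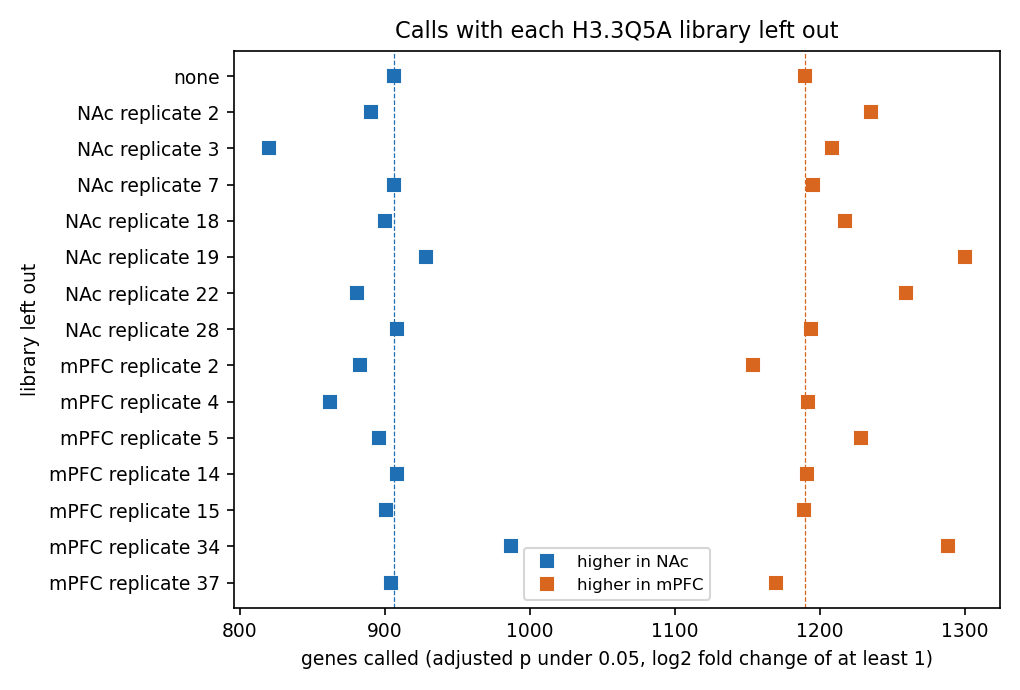
The x axis gives the number of genes called higher in NAc (blue) and in mPFC (orange) with each of the 14 libraries left out, listed on the y axis, and dashed lines mark the counts with all libraries. The count for NAc is highest, at 987, without mPFC replicate 34 and lowest, at 820, without NAc replicate 3.

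Leaving out NAc replicate 3 moved the NAc count the other way. Without it, 820 genes were higher in NAc and 1208 in mPFC, and the median log2 fold change of the NAc-high genes was 2.63. With both replicate 3 of NAc and replicate 34 of mPFC left out, 910 genes were higher in NAc and 1260 in mPFC, and that median was 2.86. NAc replicate 19, the NAc library with the highest level of mPFC-high genes, bore on the mPFC side: without it 1300 genes were higher in mPFC and 928 in NAc. This library lay towards mPFC on both lists, with median places of 27.4% over the NAc-high genes and 8.69% over the mPFC-high genes. The other NAc libraries had medians of −51.7% to 14.9% over the NAc-high genes. Replicate 19 was lowest in its group for 100 of the 245 NAc-high genes and highest for 125 of the 224 mPFC-high genes. A shift on both lists was thus not particular to mPFC replicate 34.

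Replicate 34 carries the P2 mark, whose meaning the labels do not state. Among P1 libraries alone (3 against 3), 1048 genes were called towards NAc and 1187 towards mPFC. Among P2 libraries alone (4 against 4), these numbers were 767 and 1154. The P1 set holds NAc replicate 3 and the P2 set holds NAc replicate 19 besides mPFC replicate 34. The part of each library in the difference between the sets was not tested. The source of the NAc-high transcripts in replicate 34 was not tested.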

How the data were processed

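Polyadenylated RNA of 28 libraries (7 per region and virus) was sequenced from TruSeq RNA V2 libraries, a kit that does not mark strand. The deposited values are raw counts per Ensembl gene, made by the authors; the submitters' processing notes name HISAT2 2.1.0, featureCounts 2.0.1, DESeq2 1.6.3 and build rn6 without their roles. All 15635 genes reach 10 counts in at least 14 libraries, so low genes had been removed before deposit; no source used here gives the annotation.

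The 14 H3.3Q5A libraries were fitted alone (edgeR 4.0.16 in R 4.3.3, filterByExpr, TMM, quasi-likelihood F test, region plus P mark, Benjamini-Hochberg adjustment over all genes tested). The H3.3WT libraries were fitted likewise, and the interaction on all 28. CPM used TMM factors over 28 libraries, and log2 CPM a prior count of 2. Alternatives used DESeq2 1.42.0 and limma 3.58.1. The procedure was tested on simulated data. Of the genes given a 2-fold difference, which is the fold limit itself, 79.6% passed the adjusted p and 46.9% were called. At 4-fold 100% were called, and 3 genes given no difference were called. The labels do not link libraries to animals, and the p-values reflect library-to-library spread, which may be technical. No 2 libraries of a group agreed within sampling noise (smallest chi-square per degree of freedom 7.49).

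The comparison, the lists and the tests were chosen with earlier results of these data known. Named genes are the 2 with the largest fold in each direction among those reaching 10 CPM in the higher region, the 2 of each list farthest from the other mPFC libraries in replicate 34 at the same level, and the 2 smallest interaction p-values each way. The rule allowed more genes, and gene lists by function, for identifiers with a symbol.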

Additional observations from a re-analysis of the deposited data

Results flagged for a closer look

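In 40 groups of 7 values, the highest or lowest library was examined for a gap to the next one that was large against the range of the group, which chance gives in about 1 of 20 groups. It was found 19 times, and the values are not independent, since several of them measure the same libraries. Some of the genes examined were chosen for the distance of mPFC replicate 34 from the other mPFC libraries. A gap of replicate 34 in them was partly fixed beforehand, so the 19 are not set against the chance rate.

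Replicate 34 of mPFC was set apart by its level of NAc-high genes (1.84 log2 CPM, next 0.88) and of mPFC-high genes (2.76, next 3.08), by its region score of −0.92 (next −2.27), by the shares of its counts in NAc-high genes (0.533%, next 0.275%) and mPFC-high genes (0.998%, next 1.24%), and by its place of 10.3% towards NAc over the NAc-high genes (next −1.43%). It was also set apart in ENSRNOG00000028348 (0.565 CPM, next 0.0571), ENSRNOG00000017712 (19.2 CPM, next 0.609) and ENSRNOG00000057031 (2.41 CPM, next 0.264). Since ENSRNOG00000017712 and ENSRNOG00000057031 were chosen for this distance, their gaps are a description only.

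Replicate 3 of NAc was set apart by its share of counts in NAc-high genes (4.55%, next 2.70%), its place of −51.7% over those genes (next −1.32%), a low value of ENSRNOG00000010053 (2.51 CPM, next 32.2) and a high value of ENSRNOG00000057031 (58.2 CPM, next 37.6). Replicate 19 of NAc was set apart by its level of mPFC-high genes (0.96 log2 CPM, next 0.42), its place of 8.69% towards mPFC over those genes (next 0.813%) and ENSRNOG00000024899 (8.01 CPM, next 0.431).

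Replicate 22 of NAc had a total count of 51.7 M (next 26.4 M). In mPFC, replicate 2 was at 41.9 CPM in ENSRNOG00000024899 (next 14.8) and replicate 15 at 104 CPM in ENSRNOG00000004730 (next 124).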

How the results depend on the processing

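The counts of 906 and 1190 genes stayed within 1.5-fold under other scalings, DESeq2, limma voom with sample quality weights, either filter, no P term, P1 or P2 libraries alone, all 28 libraries in 1 fit and counts thinned to 17.1 M per library. They changed with the fold limit, as its construction fixes: 4367 and 4348 at any fold, 266 and 320 at a log2 fold change of at least 2, and 474 and 605 when glmTreat tested against a log2 fold change of 1. With single libraries left out they ranged from 820 to 987 and from 1154 to 1300. The interaction called 0 genes with each H3.3Q5A library left out and 9 with limma voom. With limma voom, ENSRNOG00000021410, ENSRNOG00000018755 and ENSRNOG00000006789 passed (limma adjusted p = 0.0183, 0.0253 and 0.043). DESeq2 gave no adjusted p for ENSRNOG00000017712, ENSRNOG00000057031 and ENSRNOG00000024899. The last of these passed among P1 libraries alone (edgeR adjusted p = 0.0347). No named gene reversed.

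The median place of replicate 34 over NAc-high genes was 12.1% with lists at a log2 fold change of at least 1, 9.35% at 3, 11.1% against medians of the other libraries and 33.2% on the log2 scale. Over mPFC-high genes it was 14.4% on the log2 scale. The region score, the mean of NAc-high minus that of mPFC-high genes, differed by 5.96 between the regions, and by 3.60 with lists at a log2 fold change of at least 1. The difference in total count was −8.93 M without replicate 34 (exact permutation p = 0.129). No paired analysis was possible because the groups share only replicate number 2. Depth limits the genes at a few reads in one region, whose folds move with single libraries.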
